A study of Bos taurus with 9 samples.

Results

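Genes of the DNA replication fork, of nucleotide supply and of recombination were examined in bovine uterine gland fragments after 5 days of culture. The list held 43 genes, chosen by symbol for these functions with earlier results of these data known, so that the shares of called genes given here are not independent of those results, and 42 of them were analysed among the 20679 genes of the deposited tables. UNG was not analysed here. RNA-seq covered 9 libraries in 3 groups of 3, all harvested on day 5 from fragments embedded in Matrigel and fed DMEM/F12 with bovine serum albumin, ascorbic acid, transferrin, sodium selenite and insulin. The CYST group received no EGF and grew as cysts. The UG-LIKE group, also called MAT, received EGF and grew as gland-like structures, and the MAT + COL group received EGF in Matrigel to which type I collagen had been added. The labels state no dose of EGF or collagen. The uteri came from an abattoir and were taken at a luteal stage, and the labels do not tie a library to an animal. The p-values therefore measure the spread between these libraries. In fits with the replicate number as a block, they measure the spread left after differences between replicate numbers.

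At a replication fork the CMG helicase, built of the MCM ring, CDC45 and the GINS complex, unwinds DNA, and RPA coats the exposed strands. Polymerase alpha with primase starts each strand, the RFC clamp loader places the PCNA ring, and polymerases delta and epsilon extend the DNA, after which FEN1 and LIG1 join the Okazaki fragments. Ribonucleotide reductase and thymidylate synthase supply the building blocks, while BRCA and Fanconi anaemia proteins protect and restart stalled forks. Transcription of many of these genes rises as cells enter S phase.

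Total counts ranged from 6568968 (MAT replicate 1) to 17948600 (MAT + COL replicate 2) per library. The labels name epithelial cells, and the keratin KRT8 was between 7950 and 18300 TPM (transcript abundance scaled to gene length and library) and EPCAM between 395 and 764, while the gland transcription factor FOXA2 was between 1.31 and 12.4. The stromal marker DCN was also present in every library, between 236 and 1930 TPM. The summed TPM of 9 stromal markers was 2259 to 4878 in CYST, 1208 to 3798 in MAT and 2231 to 4315 in MAT + COL, while that of 8 epithelial markers was 17890 to 19230, 28470 to 44420 and 29520 to 39520. Within the stromal sum VIM was higher with EGF, at 238 to 312 TPM in CYST, 452 to 796 in MAT and 327 to 810 in MAT + COL. PDGFRB was lower in MAT (0.209 to 0.662) than in CYST (0.8 to 1.19), and the other stromal markers overlapped between these groups. The epithelial sums consist mostly of KRT8 and KRT19, and CLDN4, KRT18 and FOXA2 overlapped between CYST and MAT. The summed TPM of 7 leukocyte markers was 19.63 to 49.57 over the 9 libraries, of which CD14 (13.2 to 45.2) was the main part, CD68 was at 2.21 to 10.2, and CD3E and MS4A1 were at 0 in the 3 CYST libraries. The sum of 5 smooth muscle markers was 148.9 to 187.8 in CYST, 40.46 to 88.6 in MAT and 73.48 to 94.91 in MAT + COL, with TAGLN at 66.1 to 106 TPM in CYST and 16.2 to 45.1 in MAT. TAGLN and CNN1 did not overlap between CYST and MAT, whereas ACTA2, MYH11 and DES did. MYH11 was at 4.78 to 9.94 TPM in CYST and 6.56 to 10.4 in MAT. In RNA from whole cultures, fewer cells of a type and less RNA per cell cannot be told apart.

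As a group the 42 genes were at lower levels in UG-LIKE structures than in cysts. Their TPM values summed to 3366, 3310 and 2381 in CYST replicates 1 to 3, to 1417, 1763 and 1258 in MAT, and to 1549, 1728 and 1439 in MAT + COL. Every CYST sum lay above every sum with EGF. The median Log2FC of UG-LIKE against CYST was -1.08 over the 42 genes, against 0.01 over the 12074 genes tested, and 40 of the 42 values were negative. They ranged from -2.18 for GINS2 to 0.21 for FANCD2.

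With edgeR's quasi-likelihood test and adjustment over all genes tested, 7 of the 42 genes fell at an adjusted p under 0.05 and 0 rose, while 0.944% of all genes tested fell. These were POLD2, PCNA, RFC4, CDC45, RRM2, DUT and UHRF1. All 7 also met the DEG criteria of the study (Log2FC below -1 and a minimal TPM above 1 in addition to the adjusted p, the TPM criterion being read here as applying to each of the 6 libraries), which 0.729% of all genes met in that direction. The study does not name its test, and it reported more lower genes at these criteria than the 88 found here. The 7 are therefore not a count of its DEGs. With the replicate number as a block, 29 of the 42 fell, against 5.67% of all genes, and 21 met the DEG criteria, against 3.08%. Values that did not overlap between the groups, with every MAT library below every CYST library in TPM, were found for 31 of the 42 genes and for 11.8% of all genes. The number of calls depended on the libraries and the tool, and shares of all genes called were not counted for the following fits. Without CYST replicate 1, CYST replicate 2, MAT replicate 1 or MAT replicate 3 no gene of the 42 was called, 2 were called without MAT replicate 2 and 4 without CYST replicate 3, while DESeq2 called 28.

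**Figure D1:**
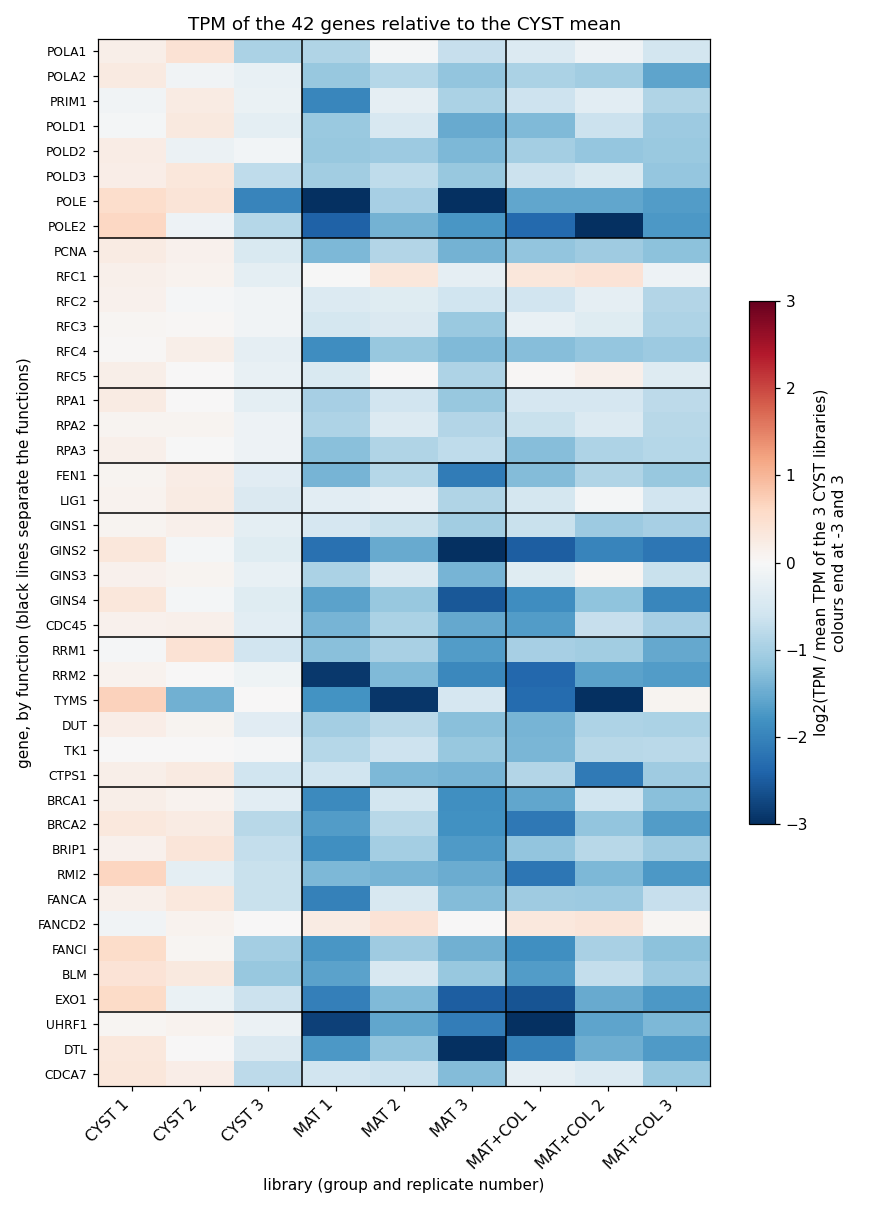
Colour gives log2 of the TPM of each of the 42 genes (vertical axis, by function) divided by its mean over the 3 CYST libraries, in each of the 9 libraries (horizontal axis, by group and replicate number). Most genes are blue, that is lower, in the 6 libraries with EGF, while RFC1 and FANCD2 stay near white or red.

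Among the 8 genes of the polymerases and primase, 1 fell without the block and 4 with it, and all 8 Log2FC values were negative, from -2.16 to -0.47. POLD2, the small regulatory subunit of polymerase delta (chromosome 4 from 77190290 to 77200482 in ARS-UCD2.0), was at 85.7, 65.4 and 69.3 TPM in CYST, at 33.6, 34.7 and 29.1 in MAT and at 36.1, 32.7 and 33.7 in MAT + COL. All 6 libraries with EGF lay below the lowest cyst library. Its Log2FC against CYST was -1.20 ± 0.20 (SE, n = 3 per group, adjusted p = 0.0401).

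POLA2, the regulatory subunit of polymerase alpha (chromosome 29 from 43477546 to 43504471), was at 34.4, 26.4 and 24.3 TPM in CYST, 13.0, 15.8 and 12.4 in MAT and 14.7, 13.7 and 9.50 in MAT + COL, again without overlap. Its Log2FC for UG-LIKE was -1.05 ± 0.22 (SE), past the threshold with the block (adjusted p = 0.032) and short of it without (adjusted p = 0.0567). POLA1, the catalytic subunit of the same polymerase (chromosome X from 118341615 to 118637197), showed overlapping groups, with 13.2, 15.9 and 6.10 TPM in CYST, 6.29, 11.2 and 7.27 in MAT and 8.80, 10.5 and 8.06 in MAT + COL. Its Log2FC was -0.47 (95% interval -1.25 to 0.31) and did not pass with or without the block. The lowest CYST value of POLA1 was in replicate 3.

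POLE, the catalytic subunit of polymerase epsilon, was the least evenly measured. It was at 10.2, 9.30 and 1.81 TPM in CYST, 0.121, 3.58 and 0.727 in MAT and 2.43, 2.43 and 2.21 in MAT + COL, and the value of 0.121 rests on 3 counts. That library and the 9 counts of POLE2 in the same library were the only 2 of the 378 values of the 42 genes under 10 counts. For POLE2, the accessory subunit, the groups did not overlap, with at least 5.39 TPM in CYST and at most 3.65 in MAT. The adjusted p was 0.26 for POLE and 0.105 for POLE2, and 0.0919 and 0.0866 with the block.

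In the sliding clamp and its loader, 2 of 6 genes fell with and without the block, and the members of the loader did not move alike. PCNA, the ring that holds polymerases on DNA (chromosome 13 from 47430406 to 47436478), was at 289, 267 and 178 TPM in CYST, 95.6, 132 and 91.4 in MAT and 108, 116 and 105 in MAT + COL. Its highest value with EGF lay below its lowest value in cysts. The Log2FC for UG-LIKE was -1.19 ± 0.21 (SE, adjusted p = 0.0414), a 2.29-fold lower level.

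RFC4, a small subunit of the loader (chromosome 1 from 80452888 to 80467441), fell from 55.0, 60.8 and 44.5 TPM in CYST to 14.6, 24.2 and 21.3 in MAT, and was at 22.2, 24.0 and 25.1 in MAT + COL. Its Log2FC was -1.41 ± 0.26 (SE, adjusted p = 0.0462). RFC1, the large subunit (chromosome 6 from 58429957 to 58554108), was at 21.2, 20.6 and 15.5 TPM in CYST, 18.9, 24.3 and 15.9 in MAT and 24.1, 25.3 and 17.2 in MAT + COL, and the groups overlapped. Its Log2FC was 0.04 (95% interval -0.43 to 0.52), and the sign turned without MAT replicate 2, at -0.13. RFC2, RFC3 and RFC5 lay between, at -0.47, -0.69 and -0.42, and none of the 3 passed the test in either fit. The ratio of RFC1 to RFC4 in TPM was 0.339 to 0.385 in the cysts, 0.747 to 1.29 in MAT and 0.684 to 1.09 in MAT + COL.

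The 3 subunits of RPA, the protein that coats unpaired strands, were all called with the block and none without it. RPA3 (chromosome 4 from 15692491 to 15695690) was at 214, 190 and 173 TPM in CYST, 80.7, 103 and 114 in MAT and 79.1, 102 and 106 in MAT + COL. RPA1 (chromosome 19 from 22900142 to 22948930) was at 52.7, 44.8 and 36.1, then 22.3, 29.8 and 20.3, then 31.6, 31.6 and 26.0 TPM in the same order. RPA2 (chromosome 2 from 125448127 to 125470837) was at 188, 188 and 160, then 93.4, 135 and 97.1, then 112, 134 and 101 TPM. For each subunit, every library with EGF was below every cyst library. Without the block, the Log2FC values for UG-LIKE were -0.96, -0.88 and -0.73. The blocked adjusted p was 0.0282, 0.0324 and 0.0428, and no Log2FC reached the DEG criterion of -1 in either fit.

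Both genes of Okazaki fragment maturation had negative Log2FC values, and 1 passed with the block. FEN1, the flap nuclease (chromosome 29 from 40236078 to 40242565), was at 38.5, 42.3 and 28.6 TPM in CYST, 13.8, 20.2 and 8.54 in MAT and 14.9, 19.5 and 16.6 in MAT + COL. The groups did not overlap, and the Log2FC for UG-LIKE was -1.36 ± 0.30 (SE), with an adjusted p of 0.014 with the block and 0.0619 without. LIG1, the ligase that seals the fragments (chromosome 18 from 54865688 to 54893278), was at 39.9, 44.0 and 27.5 TPM in CYST, 29.7, 31.5 and 19.9 in MAT and 25.8, 35.5 and 25.1 in MAT + COL. Its groups overlapped, and its Log2FC of -0.46 (95% interval -0.96 to 0.05) did not pass.

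All 5 helicase partners were lower in every MAT library than in any cyst library, 4 passed with the block and 1 without. CDC45, which activates the helicase (chromosome 17 from 72716420 to 72732379), was at 24.0, 24.5 and 17.7 TPM in CYST, 8.34, 11.5 and 7.58 in MAT and 6.89, 13.6 and 11 in MAT + COL. Its Log2FC was -1.27 ± 0.25 (SE, adjusted p = 0.0496). GINS2 (chromosome 18 from 11648397 to 11685193) had the lowest Log2FC of the 42 genes, -2.18 ± 0.43 (SE). The adjusted p was 0.0131 in the blocked fit and 0.0503 in the other. It was at 46.9, 35.5 and 28.8 TPM in CYST, 7.87, 13.0 and 3.67 in MAT and 6.66, 9.32 and 8.21 in MAT + COL.

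GINS3, another subunit of the same complex (chromosome 18 from 26198019 to 26204580), was at 31.9, 30.7 and 24.9 TPM in CYST, 15.2, 21.8 and 11.1 in MAT and 22.8, 30.2 and 18.3 in MAT + COL. It did not pass for UG-LIKE in either fit (Log2FC -0.87, adjusted p = 0.135, and 0.0659 with the block). The MAT + COL values of GINS3 overlapped those of the cysts. GINS1 and GINS4 passed with the block, at blocked Log2FC values of -0.74 and -1.71.

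The 6 genes of nucleotide supply all fell with the block, and 2 fell without it. RRM2, the small subunit of ribonucleotide reductase (chromosome 11 from 87488674 to 87497847), was at 206, 196 and 177 TPM in CYST, 26.1, 77.1 and 50.3 in MAT and 37.6, 63.4 and 60.0 in MAT + COL. The lowest cyst value was above every value with EGF. Its Log2FC was -1.92 ± 0.36 (SE, adjusted p = 0.0462), a 3.79-fold lower level. RRM1, the large subunit, had the highest mean level of the 42 genes in cysts, 438 ± 150 TPM (SD, n = 3), and was at 181 ± 42.9 TPM in MAT (adjusted p = 0.0503, and 0.0066 with the block). DUT, which hydrolyses dUTP and so keeps uracil out of DNA (chromosome 10 from 62059591 to 62071096), was at 132, 122 and 90.2 TPM in CYST, 56.3, 65.2 and 48.5 in MAT and 43.7, 60.1 and 59.9 in MAT + COL. Its Log2FC was -1.02 ± 0.19 (SE, adjusted p = 0.0462).

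TYMS, thymidylate synthase (chromosome 24 from 35553503 to 35564149), varied widely between replicate numbers. It was at 69.3, 15.7 and 43.3 TPM in CYST, 12.4, 5.65 and 30.2 in MAT and 8.64, 4.66 and 45.1 in MAT + COL, so that replicate 2 was lowest for MAT, for MAT + COL and for CYST, and the ranges of the groups overlapped. Within each same-numbered pair the MAT library was below the cyst library. The Log2FC was -1.42 ± 0.71 (SE, adjusted p = 0.306) without the block and -1.48 ± 0.35 (SE, adjusted p = 0.0392) with it. TK1, thymidine kinase, and CTPS1, CTP synthase, fell with the block, at -0.87 and -1.06 without it.

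**Figure D2:**
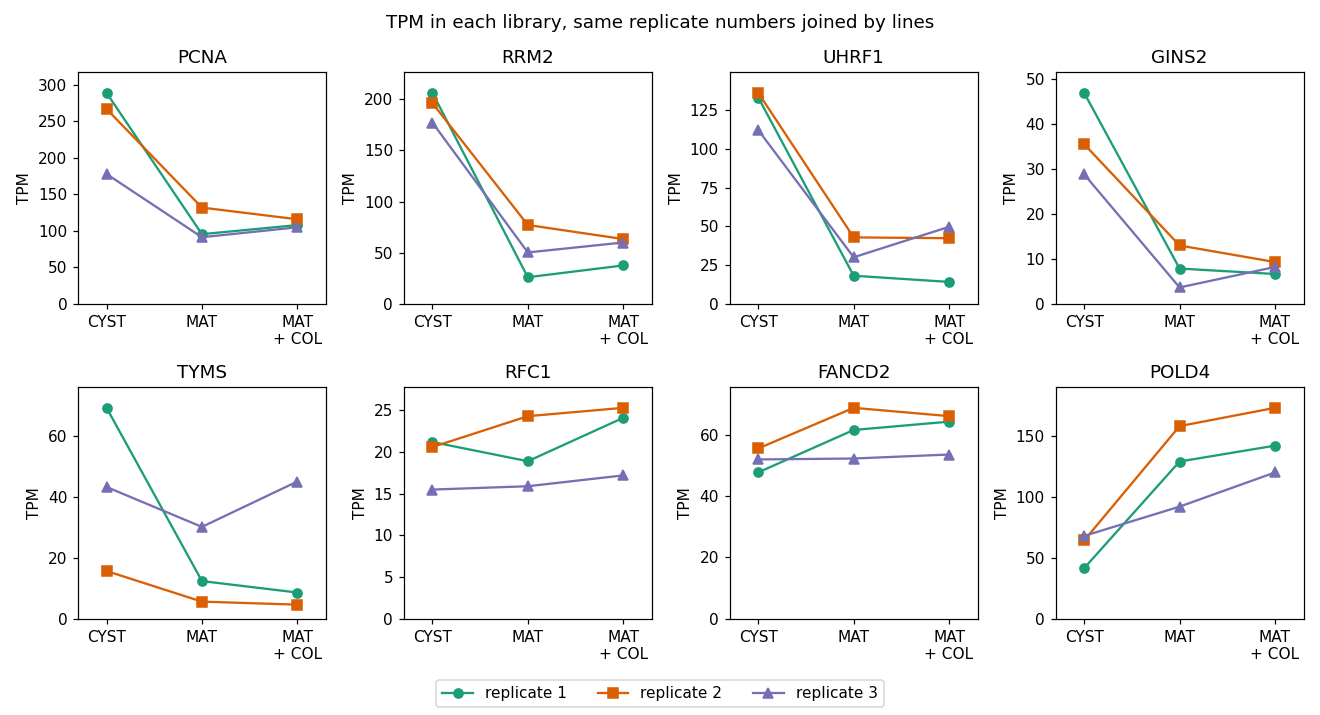
TPM (vertical axis, from 0) of 8 genes in each library, by group (horizontal axis), with libraries of the same replicate number joined by a line. PCNA, RRM2, UHRF1 and GINS2 are lower in MAT and MAT + COL than in CYST for every number, TYMS values are spread by number, RFC1 and FANCD2 stay level and POLD4, a further polymerase delta subunit, is higher with EGF.

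Of the 9 genes of recombination and crosslink repair, none fell without the block and 6 fell with it, namely BRCA1, BRCA2, BRIP1, RMI2, FANCI and EXO1. These 9 do not stand for the whole function. Their median Log2FC was -1.35, against -0.32 for the 28 other genes of this function that were tested. EXO1, a nuclease that resects DNA ends (chromosome 16 from 34954133 to 35000907), was at 6.79, 4 and 2.90 TPM in CYST, 1.11, 1.82 and 0.819 in MAT and 0.758, 1.61 and 1.39 in MAT + COL. The groups did not overlap, and its Log2FC was -1.85 ± 0.44 (SE, adjusted p = 0.0719, and 0.0327 with the block). RMI2, a partner of the BLM helicase (chromosome 25 from 9989235 to 9994630), was at 67.6, 35.7 and 27.3 TPM in CYST, 17.0, 16.5 and 15.6 in MAT and 9.67, 17.1 and 13.2 in MAT + COL. The 3 MAT values were close together while the cyst values were widely spread. The Log2FC was -1.39 ± 0.33 (SE, adjusted p = 0.0719) without the block and -1.30 ± 0.28 (SE, adjusted p = 0.032) with it.

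FANCD2, which is ubiquitinated together with FANCI at crosslinks (chromosome 22 from 16724649 to 16789121), was at 47.7, 55.5 and 51.9 TPM in CYST, 61.5, 68.7 and 52.2 in MAT and 64.2, 66.0 and 53.5 in MAT + COL. Of the 3 MAT values, 2 lay above every cyst value, but the Log2FC of 0.21 (95% interval -0.21 to 0.64) did not pass in either fit. FANCI, its partner, was at 43.7, 31.1 and 14.6 TPM in CYST and at 8.90, 14.2 and 10.9 in MAT. The Log2FC of FANCI was -1.36 (adjusted p = 0.0799) without the block and -1.28 (adjusted p = 0.0422) with it. The ratio of FANCD2 to FANCI in TPM was 1.09, 1.78 and 3.55 in CYST, 6.91, 4.84 and 4.79 in MAT and 7.69, 4.37 and 4.24 in MAT + COL. Every ratio with EGF was above every cyst ratio. This pair, like RFC1 and RFC4, was chosen after its values were seen, and its difference was not tested.

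The 3 genes that act on chromatin or protein turnover behind the fork all fell with the block. UHRF1, which reads hemimethylated DNA and recruits the maintenance methyltransferase (chromosome 7 from 19223877 to 19258173), had the smallest p-value of the 42 genes. It was at 133, 136 and 112 TPM in CYST, 18.2, 42.9 and 30.1 in MAT and 14.2, 42.4 and 49.7 in MAT + COL. Its Log2FC was -2.06 ± 0.30 (SE, adjusted p = 0.0285), a 4.17-fold lower level with a wide gap between the groups.

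DTL, the substrate receptor of a PCNA-dependent ubiquitin ligase (chromosome 16 from 71386304 to 71466322), was at 26.4, 21.3 and 15.6 TPM in CYST, 6.39, 9.32 and 2.45 in MAT and 5.17, 7.59 and 6.55 in MAT + COL. The groups did not overlap. The Log2FC was -1.81 ± 0.45 (SE, adjusted p = 0.0772) without the block and -1.95 ± 0.37 (SE, adjusted p = 0.0214) with it. CDCA7, a partner of the remodeller HELLS (chromosome 2 from 23340522 to 23377081), was at 385, 349 and 176 TPM in CYST, 203, 193 and 124 in MAT and 250, 228 and 141 in MAT + COL. Its ranges overlapped through CYST replicate 3. Its Log2FC was -0.79 ± 0.27 (SE, adjusted p = 0.154) without the block and -0.77 ± 0.16 (SE, adjusted p = 0.0267) with it.

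**Figure D3:**
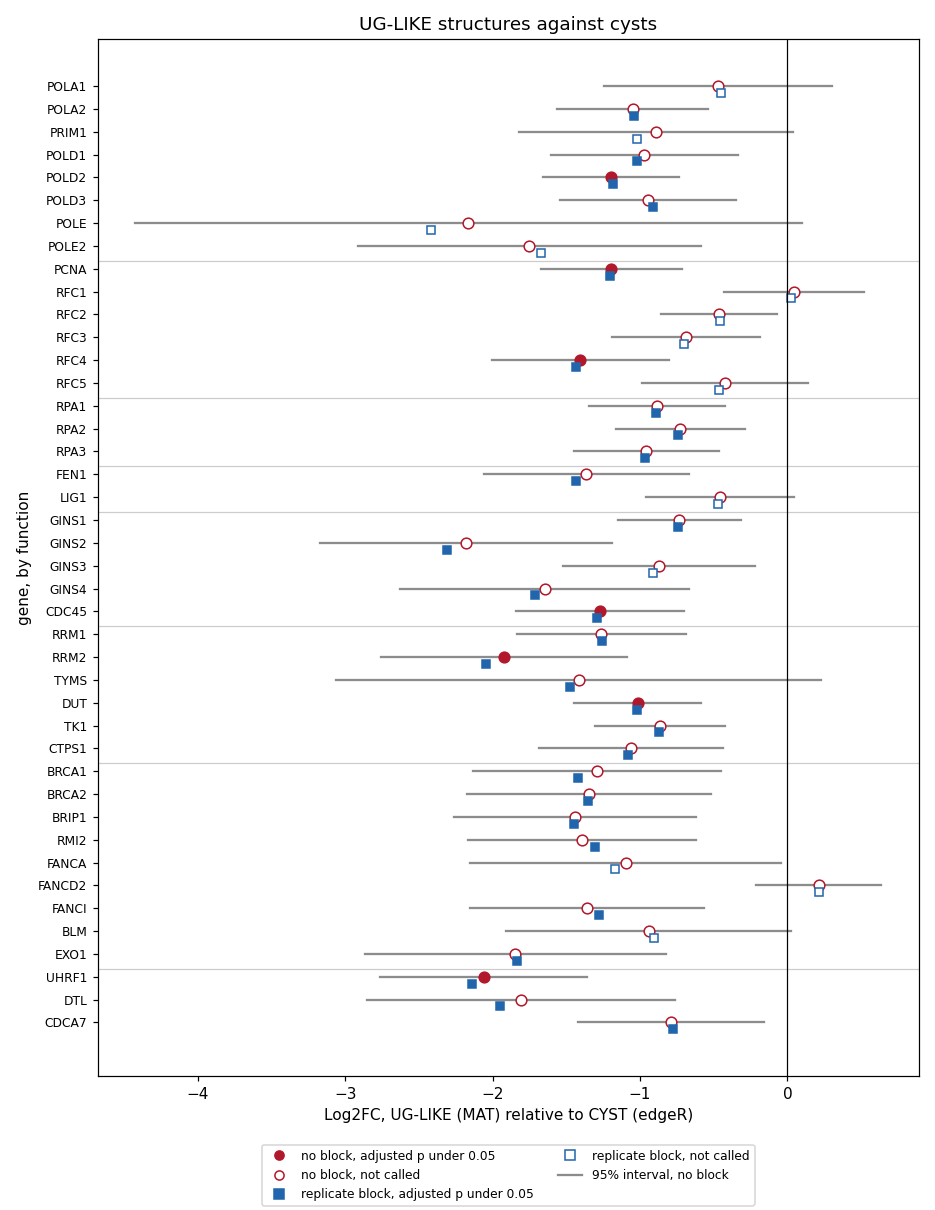
Log2FC of UG-LIKE against CYST (horizontal axis) for the 42 genes (vertical axis, by function), as circles with 95% intervals without the replicate block and as squares with it. Filled symbols passed an adjusted p of 0.05, which 7 circles and 29 squares did, and RFC1 and FANCD2 are the only genes to the right of 0.

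Comparing same-numbered libraries, 38 of the 42 genes were lower in MAT than in CYST in all 3 pairs, as were 26.2% of all genes tested. The exceptions were POLA1, RFC1, RFC5 and FANCD2. The median difference in TMM-normalised log2 CPM over the 42 genes was -1.41 in pair 1, -0.80 in pair 2 and -1.10 in pair 3, and 41, 39 and 41 genes were lower. The genes of recombination had medians of -1.96, -0.97 and -0.97, whereas those of nucleotide supply had -1.19, -1.27 and -1.16. Pair 1 therefore showed the largest difference for recombination but not for nucleotide supply. It holds the shallowest library, MAT replicate 1, and a part of depth in this was not tested. For MAT + COL against CYST the recombination medians were -2.16, -0.98 and -0.52. In pair 1 of that comparison MAT + COL replicate 1 held 17808510 counts, and CYST replicate 1, which both comparisons share, held 8424028. For UG-LIKE without replicate 1, none of the 42 genes was called with the block, while 20 were called without replicate 2 and 28 without replicate 3. For these fits the shares of all genes called were not counted.

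**Figure D4:**
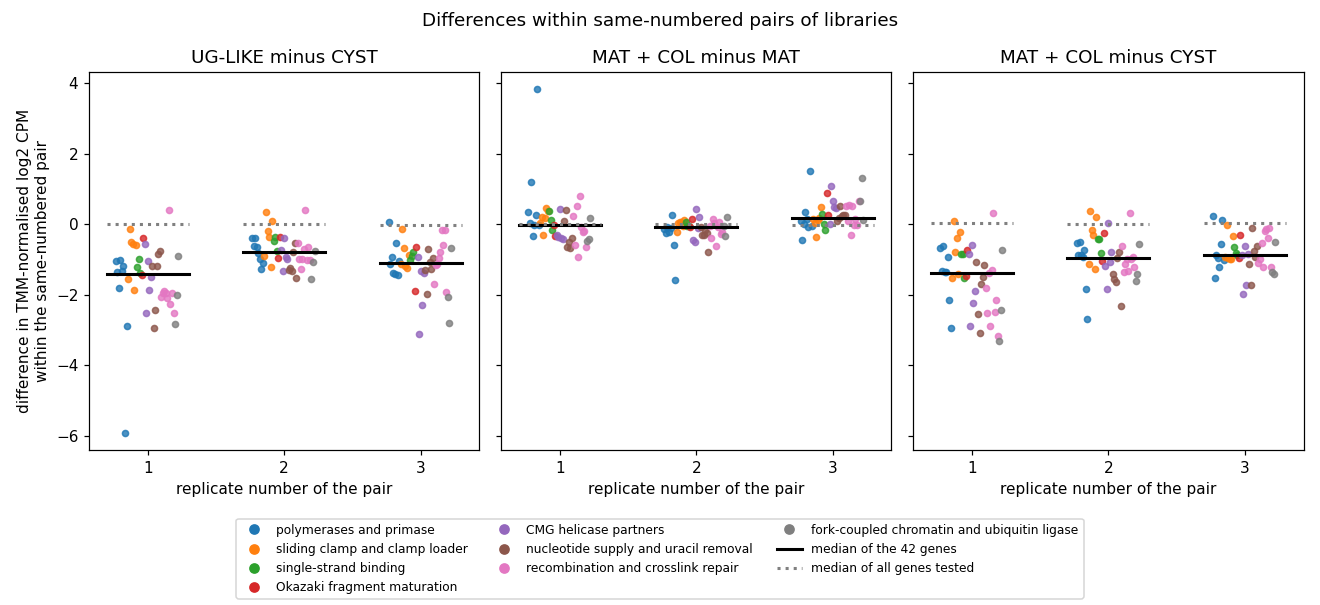
Difference in TMM-normalised log2 CPM between same-numbered libraries (vertical axis) by replicate number (horizontal axis) for the 42 genes, coloured by function, in the 3 comparisons. Black bars are medians of the 42 genes, at -1.41, -0.80 and -1.10 for UG-LIKE minus CYST and at -0.03, -0.09 and 0.18 for MAT + COL minus MAT, dotted bars are medians of all genes tested, and the most distant point in pair 1 of the left and middle panels is POLE.

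The summed level of markers of dividing cells was lower alongside these genes. The TPM of 12 mitotic genes summed to 1065, 1113 and 649.2 in CYST, 175.5, 543.5 and 395.1 in MAT and 184.0, 563.6 and 559.5 in MAT + COL, with no overlap of the sums between cysts and the groups with EGF. Gene by gene, 8 of the 12 were lower without overlap in MAT than in CYST and 7 in MAT + COL, against 11.8% and 10.3% of all genes. MKI67 overlapped, at 24, 11.9 and 9.61 TPM in CYST and 5.77, 4.37 and 10.4 in MAT. With edgeR its adjusted p for UG-LIKE was 0.181 without the block and 0.0767 with it. The paper reported comparable rates of cells positive for its protein, with and without EGF, at the last time point. At intermediate time points it reported higher rates with EGF. Its pathway analysis of these RNA-seq data listed cell cycle and DNA replication among the pathways of genes lower with EGF. Whether fewer cells were dividing was not tested here. AURKB and PLK1 fell for UG-LIKE without the block and 6 of the 12 with it, against 0.944% and 5.67% of all genes. The median Log2FC of the 12 was -1.29. Within the pairs the medians of the mitotic genes were -2.48, -0.96 and -0.80. For MAT + COL against CYST edgeR called 0 of the 12 with or without the block. At an unadjusted p under 0.05 there were 5 of the 12 without the block and 7 with it. Of the 12509 genes tested, 2709 and 3295 were under it in the same fits. The median Log2FC of the 12 was -1.12, with pair medians of -2.70, -0.94 and -0.24. The part of the mitotic genes, of the lower smooth muscle marker sums and of the higher epithelial marker sums in the difference of the 42 genes was not tested.

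Other genes of the same processes, a list of 92 of which 89 were measured and 88 tested, had a median Log2FC of -0.51 for UG-LIKE. Without the block 4 fell, namely PCLAF, WDHD1, ADSL and ASF1B, and none rose. With the block 25 fell and 1 rose, the background of rising genes being 4.9%. The lowest Log2FC values among those 26 belonged to CLSPN, PCLAF and DTYMK, and the highest to POLD4, RBBP8 and UMPS. By function, the medians ran from -1.16 (4 genes of the sliding clamp and its loader) to -0.32 (4 genes of the polymerases and primase). For the 28 genes of recombination and crosslink repair the median was also -0.32, and 22 values were negative. Of these 28, 0 fell without the block and 4 with it. Values were lower in MAT without overlap for 4 of the 28, beside 11.8% of all genes.

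CLSPN, claspin, a mediator of the replication checkpoint, was at 5.81, 8.62 and 5.64 TPM in CYST, 0.764, 2.78 and 1.15 in MAT and 1.03, 3.29 and 2.11 in MAT + COL. PCLAF, a PCNA-binding factor, was at 119, 122 and 104, then 21.3, 54.4 and 29.8, then 18.9, 55.0 and 46.5 TPM. DTYMK, which phosphorylates dTMP, was at 104, 97.1 and 106, then 19.4, 44.3 and 34.8, then 24.9, 39.8 and 36.1 TPM. In all 3 genes cysts were separate from both groups with EGF. The Log2FC values for UG-LIKE without the block were -2.07, -1.71 and -1.65, and the adjusted p with it was 0.0147, 0.0116 and 0.0152.

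UMPS, an enzyme of pyrimidine synthesis, was measured at 56.7, 44.2 and 40.2 TPM in CYST, 34.3, 26.4 and 20.2 in MAT and 32.5, 25.8 and 21.6 in MAT + COL. RBBP8, a cofactor of end resection, was at 127, 130 and 69.3 TPM in CYST, 76.2, 83.4 and 52.1 in MAT and 121, 88.1 and 55.7 in MAT + COL, with overlap between the groups. Their Log2FC values were -0.82 and -0.61 without the block, and their adjusted p with it was 0.0321 and 0.0463.

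POLD4, the smallest subunit of polymerase delta, rose with the block, where POLD1, POLD2 and POLD3 fell. It was at 41.6, 64.3 and 68.0 TPM in CYST, 129, 158 and 92.0 in MAT and 142, 173 and 120 in MAT + COL, and all 6 libraries with EGF were above the cysts. Its Log2FC for UG-LIKE was 1.08 ± 0.30 (SE), with an adjusted p of 0.0475 with the block and 0.0983 without. The ratio of POLD4 to POLD1, the catalytic subunit, was 1.11, 1.33 and 2.12 in CYST, 7.13, 5.57 and 6.66 in MAT and 8.98, 6.90 and 6.48 in MAT + COL. Like the other ratios it was chosen after its values were seen and was not tested.

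MAT + COL was also compared with CYST, using the same cyst libraries. Here 9 of the 42 genes fell and 0 rose, against 0.815% of the 12509 genes tested that fell, and the median Log2FC was -1.11. They were POLA2, POLD2, PCNA, RFC4, FEN1, GINS1, GINS2, RRM2 and DTL. With the block 15 fell, against 2.58% of all genes, and 30 of the 42 did not overlap, against 10.3%. Without CYST replicate 1, CYST replicate 2, MAT + COL replicate 1 or MAT + COL replicate 2 no gene of the 42 was called, and 3 were called without CYST replicate 3 and 4 without MAT + COL replicate 3. With the block, 3 were called without replicate 1, 2 without replicate 2 and 33 without replicate 3. Shares of all genes called were not counted for the fits that left out libraries.

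Side by side, the Log2FC against cysts was -1.19 in MAT and -1.20 in MAT + COL for PCNA, -1.92 and -1.90 for RRM2, and -2.18 and -2.24 for GINS2. RFC1 and FANCD2 were again the only genes above 0, at 0.15 and 0.17 in MAT + COL, and did not pass. None of the 9 recombination genes was called in MAT + COL with the block, and their median Log2FC was -1.11 there and -1.35 in MAT. UHRF1 was at -1.86 ± 0.45 (SE) in MAT + COL, where the adjusted p was 0.0426 in the blocked fit and 0.0757 in the other.

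Whether collagen moved these genes under EGF was tested directly between MAT + COL and MAT. None of the 42 genes was called by edgeR without or with the block, in either direction, nor was any of the 12470 genes tested (0% in both fits), and the other tools run called none of the 42. At an unadjusted p under 0.05 there were 0 of the 42 and 51 of all genes without the block, and 2 of the 42 and 618 of all genes (4.96%) with it. The median Log2FC of the 42 genes was 0.02, with values from -0.56 for POLE2 to 0.58 for POLE. In all 3 pairs 5 genes were lower and 7 were higher, beside 13.5% and 13.3% of all genes.

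The 2 genes with the smallest blocked p were GINS3 and RFC5. GINS3, whose values are given above, was higher in MAT + COL in 3 of 3 pairs, with a blocked Log2FC of 0.51 (95% interval 0.11 to 0.91, adjusted p = 0.955). RFC5, a small clamp loader subunit (chromosome 17 from 57182984 to 57193918), was at 35.1, 31.7 and 26.8 TPM in CYST, 22.6, 31.3 and 16.3 in MAT and 32.1, 34.8 and 23.8 in MAT + COL. It was higher with collagen in each pair, although the ranges overlapped, with a blocked Log2FC of 0.32 (95% interval 0.02 to 0.62, adjusted p = 0.955). Neither passed the test.

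With the block, the 95% interval of the collagen difference lay between -1 and 1 for 38 of the 42 genes, and it reached past these bounds for POLE, POLE2, BRIP1 and FANCA. For PCNA it ran from -0.29 to 0.25 around a Log2FC of -0.02. These intervals are not limits of detection for the adjusted test. The blocked interval was 0.11 to 0.91 for GINS3 and 0.02 to 0.62 for RFC5, yet neither gene was called. The smallest difference detectable with 3 libraries per group was not tested.

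For 13 of the 42 genes the annotated span overlaps another gene, and the strand setting of the counting is not given in the sources used here, so that reads could be shared. These were CTPS1 with SLFNL1, RFC1 with KLB, UHRF1 with ARRDC5, POLE2 with a ribosomal protein entry (RPL36A_1), BRCA2 with N4BP2L1, POLE with PXMP2, RFC5 with WSB2, FANCA with ZNF276, LIG1 with ZSWIM9, RPA1 with SMYD4, FANCI with POLG, FANCD2 with FANCD2OS and FEN1 with TMEM258. The values of these genes are uncertain to that extent.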

How the data were processed

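RNA-seq libraries (SMART-Seq HT PLUS kit, paired-end reads) from 9 cultures were analysed. Trimming and alignment to ARS-UCD2.0 were done by the authors in CLC Genomics Workbench 25.0.1 at default settings, and the raw counts per gene they deposited carry no normalization. The authors also deposited TPM, which were used for levels. Annotation release and strand setting are not given in the sources used here.

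Tests on counts used edgeR 4.0.16 under R 4.3.3 (filterByExpr with a minimum count of 10, TMM, quasi-likelihood test, Benjamini-Hochberg adjustment over all genes tested) on the 6 libraries of each comparison. Totals of 6568968 to 17948600 counts limit the precision of genes with few reads, and reads carry no molecular identifiers. The study names no covariate. Across genes, same-numbered libraries deviated together from the means of their groups, with correlations of at least 0.329 (UG-LIKE and CYST), 0.471 (MAT + COL and MAT) and 0.278 (MAT + COL and CYST), so that the replicate numbers pair the libraries, and a fit with the number as block is given where it changes a call. The study's text also describes division by individuals for the MAT and MAT + COL libraries.

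The members and lists were chosen with earlier results of these data known. Library values are given for every gene of a function with 3 or fewer genes, for the 2 smallest and the largest p-value in larger functions, for the 2 smallest blocked p-values for collagen, and for 6 partner genes (the 3 lowest and the 3 highest Log2FC among those called with the block). POLE, POLE2, FANCI and the ratios were picked with their values in view. The edgeR fits of each comparison, with and without the block, were first tested on simulated counts, and the other settings were not. Alternatives were DESeq2 1.42.0, RLE size factors, no filter, the block, all 9 libraries, downsampling, limma 3.58.1 on log2(TPM + 1) and log2(TPM + 0.1), the DEG criteria and leaving out libraries. The block with all 9 libraries or without one replicate number was added after the data had been seen. Promoter sequences were not analysed here. Plots were made in Python 3.11.15 using matplotlib 3.10.9.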

Additional observations from a re-analysis of the deposited data

How the results depend on the processing

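Of the 42 genes, the number called for UG-LIKE against CYST was 7, and it was 28 with DESeq2, 15 with all 9 libraries in the fit, 1 with limma on log2(TPM + 1) and 0 on log2(TPM + 0.1). For MAT + COL against CYST it was 9, and 28, 16, 3 and 0 under the same settings. For the 88 partner genes tested for UG-LIKE it was 4, and 29, 11, 0 and 0, and 9 with no filter on low counts. With the replicate block it was 29 for UG-LIKE, 15 for MAT + COL and 26 for the partner genes, with the block in DESeq2 32, 31 and 32, and with the block in all 9 libraries 31, 31 and 30. The DEG criteria with the block gave 21, 14 and 19. Leaving out 1 library gave 0 to 4 for UG-LIKE, 0 to 4 for MAT + COL and 0 to 6 for the partner genes. With the block and without replicate 1, 2 or 3, it was 0, 20 and 28 for UG-LIKE, 3, 2 and 33 for MAT + COL, and 0, 19 and 34 for the partner genes. The causes were not tested, except that fits without a library hold fewer samples. Shares of all genes called were counted only for the edgeR fits to 6 libraries, with and without the block.

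RLE size factors and downsampling kept these counts within 1.5 times. For MAT + COL against MAT every setting called 0 of the 42 genes. On the TPM scale 1 of the 42 in place of 5 was lower in all 3 pairs, as were 991 in place of 1680 of all genes tested. In each fit 40 or 41 of the 42 Log2FC values for UG-LIKE were negative. The exception in sign was RFC1, between -0.132 and 0.157 when 1 library was left out and at -0.139 with the block and without replicate 2. For collagen, PCNA turned to 0.061 with limma on either TPM scale and 0.102 with the block and without replicate 2. It lay between -0.121 and 0.152 when 1 library was left out. In the limma fits the median Log2FC of all genes was also above 0, at 0.0706 on log2(TPM + 1) and 0.0802 on log2(TPM + 0.1). Of the 24 genes that the naming rule picked, 19 changed sign in some fit for collagen, none of them called. Depth limits POLE and POLE2 most, with 3 and 9 counts in MAT replicate 1.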
